A study of Mus musculus with 6 samples.

Results

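Pyruvate dehydrogenase stands where glucose carbon enters the mitochondrial oxidation pathways, and 10 genes of that step are described here. They are the kinases Pdk1, Pdk2, Pdk3 and Pdk4, the phosphatases Pdp1 and Pdp2, the complex subunits Pdha1, Pdhb and Dlat, and the pyruvate carrier subunit Mpc1. They were chosen by symbol, each matched 1 row, and they are 10 of the 32479 rows of the table. RNA was sequenced from heart cells whose label is cardiac fibroblast, a primary cell preparation, of C57BL/6J mice. In 3 libraries the mice had received carbon tetrachloride (CCl4), a solvent that scars the liver and served as a model of cirrhosis, and 3 libraries came from control mice, with 3 mice stated for each group. The sources used here name no transgene or deletion in either group and give no dose, route, duration, age or sex. The comparison asks how cirrhosis brought on by CCl4 goes with the transcripts of the heart. The liver was not measured in these data.

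Pyruvate made from glucose or lactate crosses the inner mitochondrial membrane through a carrier built of Mpc1 and Mpc2. The pyruvate dehydrogenase complex then turns it into acetyl-CoA in an irreversible step, so the complex sets how much carbohydrate the citric acid cycle receives. Its kinases switch it off by phosphorylating serines of the subunit encoded by Pdha1, and its phosphatases switch it on again. In heart muscle, which burns mainly fatty acids, Pdk4 is known as the inducible kinase, raised by fasting, fatty acids, diabetes and glucocorticoids through PPAR, FOXO and glucocorticoid receptors, whereas Pdk2 is the widely expressed kinase and Pdk1 a target of hypoxia signalling.

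Values are FPKM, fragments scaled to gene length and to library size, which allow levels of different genes to be compared per length. The sums over all rows ran from 588660 to 602763 FPKM in CCl4 libraries and from 519609 to 542738 FPKM in control libraries, and fragment totals per library are unknown. Fibroblast markers were present, but cardiomyocyte markers were far more abundant. The 18 cardiomyocyte markers summed to between 22546 and 24685 FPKM in CCl4 libraries and between 16958 and 20142 FPKM in control libraries. Over all libraries Mb led, with 4331 ± 219 FPKM in CCl4 and 3815 ± 189 FPKM in control libraries (SD, n = 3 each). Actc1 came next, with 5840 ± 261 FPKM in CCl4 and 1735 ± 477 FPKM in control libraries. Much of the gap between the sums lies in Actc1, and the median log2 fold change over the list was 0.12. The 14 fibroblast markers, led by Gsn and Dcn, summed to 652 to 662 FPKM in CCl4 and 485 to 791 FPKM in control libraries. No marker of any of the 7 cell type lists was at 0 in all libraries, but 3 adipocyte markers were at 0 in some library. Of all tested rows 9.64% were called higher and 22.2% lower, and the marker counts are to be read beside these shares. Of the cardiomyocyte markers 3 rose (Actc1, Myl2 and Ckmt2) and 1 fell (Myh7). Of the fibroblast markers 8 rose and 0 fell, with a median log2 fold change of 0.61 and a largest of 2.54. Gsn and Dcn, which make up most of the fibroblast sum, were not called, so that sum does not show the rise of the others. All 5 erythroid markers rose, with sums of 2231 to 4092 FPKM in CCl4 and 537 to 2268 FPKM in control libraries, led by Hbb-bs and Hba-a1, whose calls were lost in 8 and 6 of 19 alternatives. Among 12 endothelial markers 1 rose (Kdr) and 2 fell (Flt1 and Aqp1, with Fabp4 not called), with a median log2 fold change of 0.004. Their sums were 324 to 354 FPKM in CCl4 and 390 to 438 FPKM in control libraries. Most of that gap lies in Aqp1, at 86.7 ± 6.85 FPKM in CCl4 and 145 ± 22.3 FPKM in control libraries. Among 9 tested immune markers 1 rose (Cd68) and 1 fell (Cd14, with Lyz2 and C1qb not called). Among 9 smooth muscle and pericyte markers 3 rose (Acta2, Cnn1 and Cspg4, with Rgs5 not called). Of the 7 adipocyte markers only Fabp4, which endothelial cells share, passed the filter, and Cfd, which was not tested, averaged 1.02 ± 0.699 FPKM in CCl4 and 0.747 ± 0.992 FPKM in control libraries. In bulk RNA such as this, fewer cells of a type and less RNA per cell cannot be told apart. The part of these cell type markers in the results was not tested.

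A strain marker also separated the groups. Nnt, the mitochondrial transhydrogenase, had 2.27, 2.39 and 2.87 FPKM in CCl4 libraries, against 59.51, 89.96 and 70.85 FPKM in control libraries. C57BL/6J mice are known to carry a deletion in Nnt that lowers its transcript, which related C57BL/6 substrains lack, and both groups carry the C57BL/6J label. Any difference of substrain between the groups and the effect of CCl4 cannot be told apart in this design. This holds for the cell type marker calls above and for every result that follows.

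Among the 10 genes, 3 of the 4 kinases were lower, and both phosphatases and 2 of the 3 complex subunits were higher in CCl4. Pdk4, Pdk2 and Pdk1 fell, Pdp1, Pdp2, Pdhb and Dlat rose, and Pdha1 and Mpc1 did not pass the test. Pdk3 lay under the filter of a mean of 1 FPKM, so 9 members were tested. With limma on log2(FPKM + 1) and an adjusted p under 0.05 over all 10995 tested rows, 3 members were lower, against 22.2% of all tested rows, and 4 were higher, against 9.64%. In either direction 31.8% of rows were called. No overlap between CCl4 and control libraries was seen for 8 of the 9 tested members, as for 48.7% of all tested rows. The median log2 fold change was 0.13 over the tested members and -0.09 over all tested rows. The number of lower members was 3 under every one of the 19 alternatives run. The number of higher members, 4 as deposited, was 2 after rescaling to a common sum (TPM) and 1 with no filter. It was 1 without CCl4 replicate 3 and 2 without control replicate 2, but 5 with median-ratio or quantile scaling. TPM rescaling moved the median over all tested rows to -0.23.

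**Figure D1:**
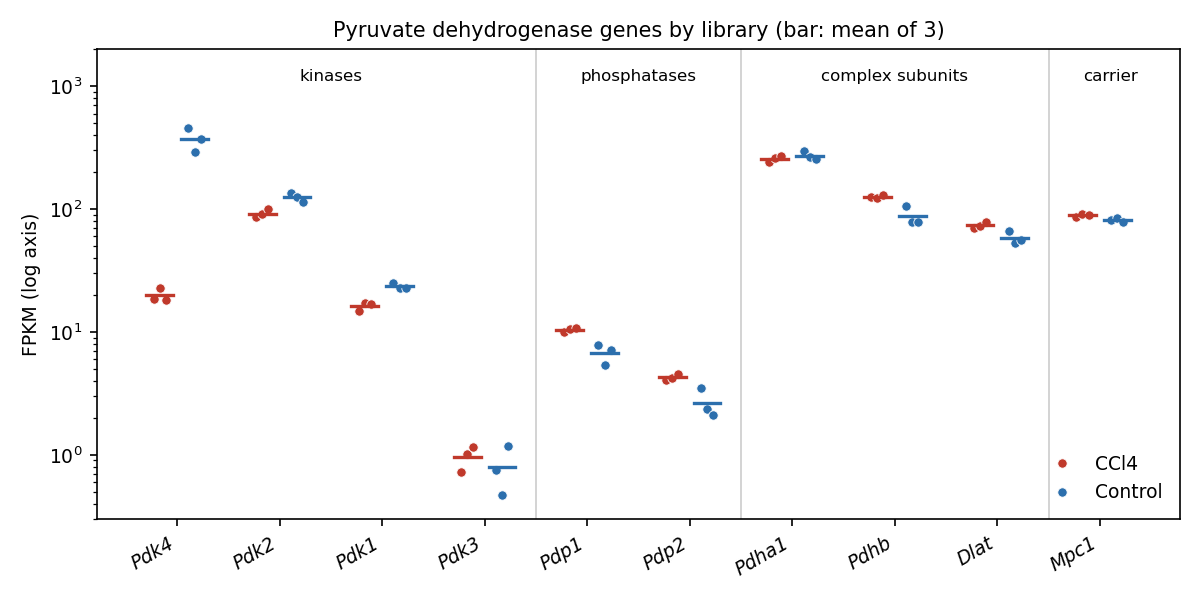
FPKM on a log axis for the 10 genes in each library, with CCl4 left of Control and a bar at the mean of 3 libraries. Pdk4 separates the groups most widely, at 18.1 to 22.7 FPKM in CCl4 and 294 to 459 FPKM in control libraries, while Pdk3 overlaps near 1 FPKM.

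Pdk4, on chromosome 6 at 5483351 to 5496309 (minus strand, GRCm38), had 18.7, 22.7 and 18.1 FPKM in CCl4 libraries, against 459, 294 and 371 FPKM in control libraries. The highest CCl4 library lay far below the lowest control library. Pdk4 fell to 19.8 ± 2.48 FPKM in CCl4, against 374.9 ± 82.7 FPKM in control (SD, n = 3 each), 18.9 times lower. Its log2 fold change was -4.16 ± 0.16 (SE; limma adjusted p = 1.72e-05). On the log2(FPKM + 1) scale this was the second largest fall among all tested rows, after Nnt. As a ratio of mean FPKM, Atf3 (28.2 times lower) and Nr4a1 (23.3 times lower) also fell by more than Pdk4.

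Pdk2, on chromosome 11 at 95026258 to 95041354, had 85.8, 91.0 and 99.5 FPKM in CCl4 libraries, against 135, 127 and 114 FPKM in control libraries. The groups did not overlap, and the gap was small beside that of Pdk4. Pdk2 fell by 0.44 ± 0.09 on the log2 scale (SE; limma adjusted p = 0.0101), with means of 92.1 ± 6.92 FPKM in CCl4 and 125.1 ± 10.7 FPKM in control libraries.

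Pdk1, on chromosome 2 at 71873224 to 71903858, had 14.8, 17.2 and 17.0 FPKM in CCl4 libraries, against 24.9, 22.8 and 22.8 FPKM in control libraries, again without overlap. It fell by 0.50 ± 0.09 on the log2 scale (SE; limma adjusted p = 0.00401). Pdk3, an X-linked kinase known for a high basal activity, was low in every library, near the filter of 1 FPKM. It had 0.73, 1.02 and 1.15 FPKM in CCl4 libraries, against 0.75, 0.47 and 1.18 FPKM in control libraries, and the groups overlapped. Its log2 difference was 0.14 (two-sided exact permutation test, p = 0.7, n = 3 each), and a fit without the filter gave a 95% interval of -0.26 to 0.54.

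The promoters of the 3 kinases that fell are shown because these genes moved in the same direction by different amounts. Each sequence runs from 250 bases before to 50 bases after the first start that RefSeq lists for the gene (GRCm38.p6), and capitals mark the CCAAT box and the GC box (letters GGGCGG) on either strand. They lie at chr6:5496229-5496528 (minus strand) for Pdk4, chr11:95041322-95041621 (minus strand) for Pdk2 and chr2:71872974-71873273 (plus strand) for Pdk1.
Pdk4: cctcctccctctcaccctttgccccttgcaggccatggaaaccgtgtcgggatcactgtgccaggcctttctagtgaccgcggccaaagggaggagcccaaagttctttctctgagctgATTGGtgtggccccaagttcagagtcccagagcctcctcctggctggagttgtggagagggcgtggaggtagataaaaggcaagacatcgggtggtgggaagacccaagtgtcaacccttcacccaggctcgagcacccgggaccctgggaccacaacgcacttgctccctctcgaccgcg
Pdk2: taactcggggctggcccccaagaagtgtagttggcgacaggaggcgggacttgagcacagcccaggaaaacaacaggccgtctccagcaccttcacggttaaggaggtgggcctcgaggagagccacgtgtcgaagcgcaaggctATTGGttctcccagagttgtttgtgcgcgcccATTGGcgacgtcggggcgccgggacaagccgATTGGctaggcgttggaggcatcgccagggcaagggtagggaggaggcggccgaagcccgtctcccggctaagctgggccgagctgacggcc
Pdk1: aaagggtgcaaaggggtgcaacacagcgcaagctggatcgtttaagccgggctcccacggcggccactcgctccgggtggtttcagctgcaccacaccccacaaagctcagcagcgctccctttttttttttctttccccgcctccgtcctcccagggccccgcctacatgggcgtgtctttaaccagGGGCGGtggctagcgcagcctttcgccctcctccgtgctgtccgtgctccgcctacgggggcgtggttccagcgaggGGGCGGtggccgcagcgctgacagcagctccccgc
Pdk4 holds 1 CCAAT box and Pdk2 holds 3, while Pdk1 holds none and has 2 GC boxes. On either strand, CCAAT occurs in 37.4% and GGGCGG in 35.7% of the 32851 promoters of this length. Another 4 motifs were searched on both strands. The letters AGGTCA, recognised by many nuclear receptors, occur in 16.3% of promoters. A part of the glucocorticoid receptor element, AGAACA, occurs in 19.0% of them. The letters bound by FOXO factors, TGTTTAC, occur in 3.65% of them. The TATA box, searched as TATAAA, occurs in 13.6% of them. None of these is in the 3 windows printed, which says only that these letters are not in these windows. RefSeq lists a second start for Pdk1 and for Pdk2. The window of the second Pdk1 start holds AGAACA 2 times and no other motif searched, and that of the second Pdk2 start holds none.

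The fall of Pdk4 changed the make-up of the kinase transcripts. In CCl4 libraries Pdk4 made up 15.6%, 17.2% and 13.3% of the summed FPKM of the 4 kinases, against 74.1%, 66.3% and 72.9% in control libraries. Pdk2 made up 71.3% ± 2.14 of the sum in CCl4 and 24.2% ± 3.73 in control libraries (SD, n = 3 each), and Pdk1 made up 12.6% ± 0.366 in CCl4 and 4.55% ± 0.558 in control libraries. Pdk2 and Pdk1 thus took larger shares although both fell. Such shares are ratios within a library, which a scaling factor common to the whole library leaves unchanged. As scores over chosen genes they carry no test.

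The difference between Pdk4 and each other kinase was also set side by side. Within each library, log2 of Pdk4 minus log2 of Pdk2 was -2.22 ± 0.23 in CCl4 and 1.56 ± 0.30 in control libraries (SD, n = 3 each), so that Pdk4 lay below Pdk2 in every CCl4 library and above it in every control library. This difference changed by -3.78 between groups, that against Pdk1 by -3.69 and that against Pdk3 by -4.57. In each of these 3 comparisons the groups did not overlap, and the two-sided exact permutation test gave p = 0.1, before and after Benjamini-Hochberg adjustment over the 3, which is the smallest p that 3 against 3 libraries allow. Pdk4 still exceeded Pdk1 in each CCl4 library, by 0.34, 0.40 and 0.09 on the log2 scale.

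The phosphatases moved the other way. Pdp1, whose product is the calcium-activated phosphatase of muscle mitochondria, lies on chromosome 4 at 11958184 to 11966452. It had 9.91, 10.5 and 10.8 FPKM in CCl4 libraries, against 7.78, 5.35 and 7.10 FPKM in control libraries, without overlap. On the log2 scale Pdp1 rose by 0.57 ± 0.12 (SE; limma adjusted p = 0.00937).

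Pdp2, the phosphatase known to respond to insulin in adipose tissue and liver, lies on chromosome 8 at 104591451 to 104599026. It had 4.04, 4.22 and 4.55 FPKM in CCl4 libraries, against 3.5, 2.35 and 2.1 FPKM in control libraries. The groups did not overlap, and the control library nearest to them was replicate 1. Its log2 fold change was 0.55 ± 0.14 (SE; limma adjusted p = 0.0177). The Pdp2 call was lost without CCl4 replicate 3 (limma adjusted p = 0.0622), without control replicate 2 (0.0579) and with no filter (0.0698). The Pdp1 call held in all alternatives run, and both genes were expressed at a few percent of the level of their target subunit, with a summed phosphatase FPKM of 5.71% ± 0.0495 of that of Pdha1 in CCl4 and 3.43% ± 0.47 in control libraries (SD, n = 3 each).

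The summed kinase FPKM was 8.60, 8.93 and 8.87 times the summed phosphatase FPKM in CCl4 libraries, against 55.0, 57.7 and 55.3 times in control libraries. These ratios varied little within a group, although the control kinase sums ran from 444 to 620 FPKM and the control phosphatase sums from 7.70 to 11.3 FPKM. Without Pdk4 the ratio was 7.45 ± 0.219 in CCl4 and 16.2 ± 2.82 in control libraries (SD, n = 3 each). These are ratios of transcript levels, and neither enzyme activity nor phosphorylation of the complex was measured.

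**Figure D2:**
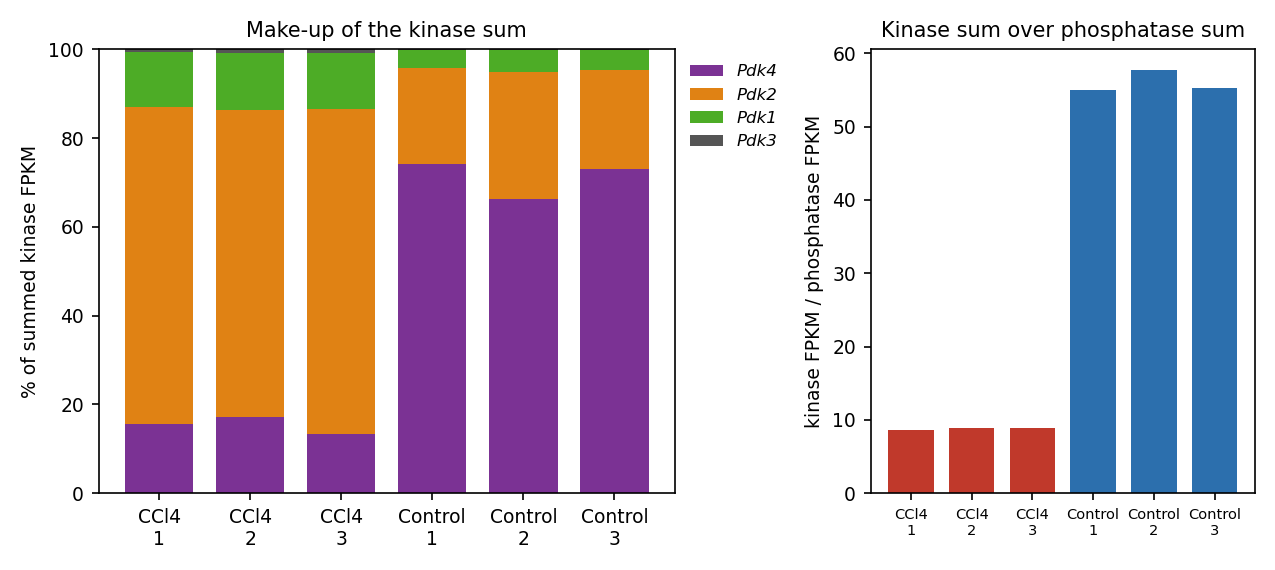
Left, share of the summed kinase FPKM (percent) taken by Pdk4, Pdk2, Pdk1 and Pdk3 in each library. Right, summed kinase FPKM divided by summed phosphatase FPKM in each library, from 8.60 to 8.93 in CCl4 and from 55.0 to 57.7 in control libraries, with no test.

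Subunits of the complex rose in part. Pdha1, the X-linked gene of the alpha subunit of the first enzyme and the target of the kinases, lies on chromosome X at 160122209 to 160138413. It had 242, 259 and 270 FPKM in CCl4 libraries, against 297, 265 and 256 FPKM in control libraries, and the groups overlapped. Its log2 fold change of -0.08 (95% interval -0.28 to 0.12; limma adjusted p = 0.487) turned positive with TMM (0.0036), median-ratio (0.03) and quantile scaling (0.01). An exon of Map3k15 overlaps Pdha1 on the opposite strand, and Map3k15 was at 0.40 ± 0.0529 FPKM in CCl4 and 0.49 ± 0.123 FPKM in control libraries.

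Pdhb, the beta subunit that pairs with Pdha1, lies on chromosome 14 at 8165996 to 8173025. It had 125, 123 and 129.8 FPKM in CCl4 libraries, against 106.9, 78.4 and 78.5 FPKM in control libraries, and the groups did not overlap. Its log2 fold change was 0.53 ± 0.12 (SE; limma adjusted p = 0.0144), a call lost after TPM rescaling (adjusted p = 0.0522), without the filter (0.0520) and without CCl4 replicate 3 (0.0527). The processed pseudogene Gm6123 on chromosome 1 shares 15.6% of the 31-base words of Pdhb, and 59.9% of its own words. Its own row had 4.34 ± 0.414 FPKM in CCl4 and 3.06 ± 0.555 FPKM in control libraries.

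Dlat, the acetyltransferase core onto which the other enzymes bind, lies on chromosome 9 at 50634633 to 50659780. It had 70.1, 72.2 and 79.0 FPKM in CCl4 libraries, against 66.2, 52.6 and 55.7 FPKM in control libraries. The groups did not overlap, with control replicate 1 close to the CCl4 libraries. Its log2 fold change was 0.34 ± 0.10 (SE; limma adjusted p = 0.0349). The call was the least stable of the 7. Leaving out a single library ended it in each case except control replicate 1 (adjusted p 0.0582 to 0.123). It was also lost as TPM (0.205), with a common sum over rows outside the mitochondrial genome (0.0777) and with no filter (0.0847).

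Relative to Pdha1, both other subunits were higher in CCl4. The FPKM ratio of Pdhb to Pdha1 was 0.516, 0.475 and 0.480 in CCl4 libraries, against 0.360, 0.296 and 0.306 in control libraries. That of Dlat to Pdha1 was 0.287 ± 0.00694 in CCl4 and 0.213 ± 0.0130 in control libraries (SD, n = 3 each). Neither ratio changes with a scaling factor common to a whole library, and neither was tested.

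Mpc1, on chromosome 17 at 8282904 to 8297661, had 86.9, 90.8 and 88.9 FPKM in CCl4 libraries, against 81.7, 84.4 and 78.0 FPKM in control libraries. The groups did not overlap, but the difference was small, with a log2 fold change of 0.13 (95% interval -0.04 to 0.29; limma adjusted p = 0.203). It was -0.03 as TPM and passed the threshold with median-ratio (adjusted p = 0.0499) and quantile scaling (0.0136). The level of Mpc1 is uncertain, because the processed pseudogene Mpc1-ps, on chromosome 12 at 110858565 to 110858894, shares 89.7% of its own 31-base words with Mpc1. The shared words are 12.6% of those of Mpc1. Mpc1-ps was listed at 391.7 ± 4.21 FPKM in CCl4 and 377.2 ± 35.3 FPKM in control libraries (SD, n = 3 each), and the sources used here do not say how fragments were split between the pair. An exon of 4930506C21Rik overlaps Mpc1 on the opposite strand, at 1.58 ± 0.242 FPKM in CCl4 and 2.02 ± 0.238 FPKM in control libraries.

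**Figure D3:**
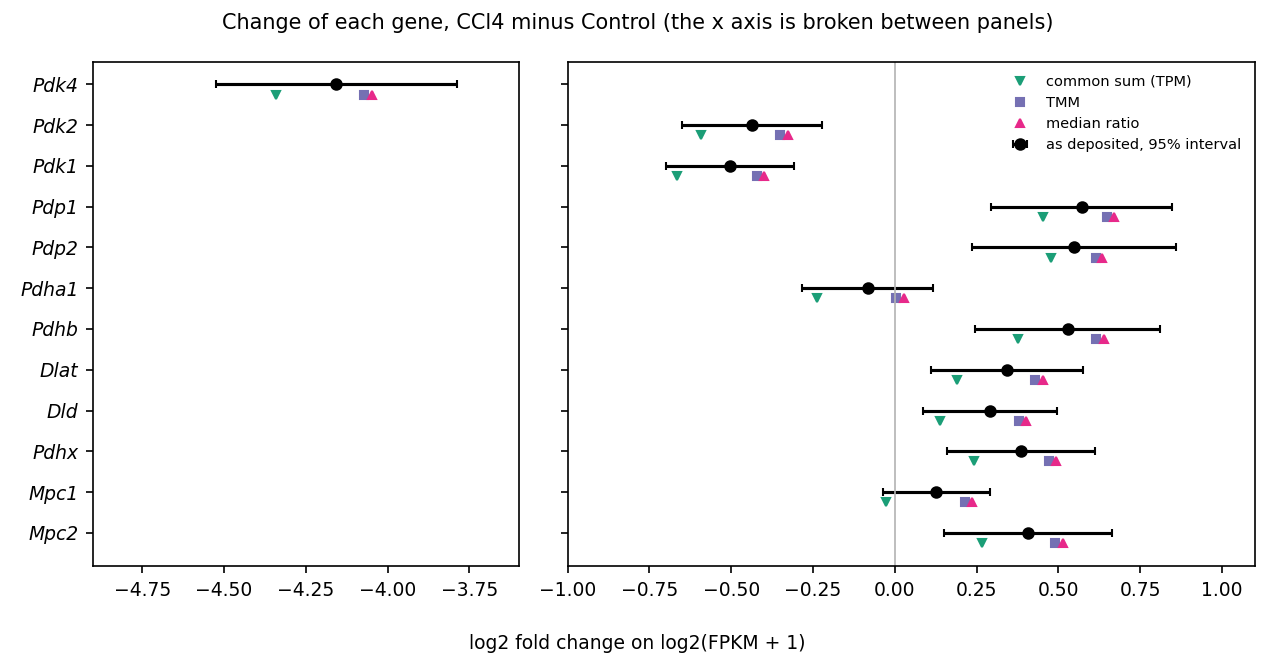
Log2 fold change of CCl4 minus control for the 9 tested members and the partner genes Dld, Pdhx and Mpc2, with 95% intervals from limma on FPKM as deposited (black) and values after TPM, TMM and median-ratio scaling (coloured). Pdk4, at -4.16, needs its own panel to the left of the broken axis, and Pdha1 and Mpc1 are the genes whose sign depends on scaling.

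The order of levels differed between groups. In CCl4 libraries the order was Pdha1, Pdhb, Pdk2, Mpc1, Dlat, Pdk4, Pdk1, Pdp1, Pdp2 and Pdk3, and in this order only Pdk2 and Mpc1 had overlapping ranges. In control libraries it was Pdk4, Pdha1, Pdk2, Pdhb, Mpc1, Dlat, Pdk1, Pdp1, Pdp2 and Pdk3, with overlapping ranges for Pdk4 and Pdha1 and for Pdhb and Mpc1. Pdk4 was the most abundant of the 10 in each control library and the sixth in each CCl4 library. It made up 2.88% ± 0.38 of the summed FPKM of the 10 genes in CCl4 and 36.0% ± 3.90 in control libraries (SD, n = 3 each).

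Of 8 partner genes of the complex and its carrier 4 rose and 0 fell, beside 9.64% of all tested rows higher and 22.2% lower, and their median log2 fold change was 0.28, against -0.09 over all tested rows. The 4 were Pdhx, the protein that anchors the third enzyme (0.39 ± 0.10, SE; limma adjusted p = 0.0201), Sirt3, a mitochondrial deacetylase (0.41 ± 0.11; 0.0257), Mpc2, the second carrier subunit (0.41 ± 0.11; 0.0268), and Dld, the third enzyme, which other dehydrogenase complexes share (0.29 ± 0.09; 0.0389). The other 4, regulators of this or a related complex and named to complete the list, did not pass, with Sirt4 at 0.27, Pdpr at -0.05, Bckdk at -0.10 and Ppm1k at -0.11. Dld had 106.3, 106.8 and 114 FPKM in CCl4 libraries, against 99.3, 84.2 and 84.1 FPKM in control libraries. The count of higher partner genes was 0 as TPM, with no filter, without CCl4 replicate 2 or 3 and without control replicate 2 or 3, and it was 1 without CCl4 replicate 1.

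The complex needs lipoate on its core and thiamine as a cofactor. Of 13 tested genes of their supply 5 rose and 1 fell (median 0.09), where 9.64% of all tested rows were higher and 22.2% lower. The iron-sulfur cluster proteins Bola3 and Glrx5 rose by 0.62 ± 0.12 (SE; limma adjusted p = 0.00689) and 0.50 ± 0.11 (0.0123) on the log2 scale, and the lipoyl transferase Lipt2 by 0.33 ± 0.08 (0.0171). Bola3 had 18.2, 19.1 and 20.2 FPKM in CCl4 libraries, against 14.5, 12.1 and 10.2 FPKM in control libraries, without overlap. Isca2, which rose, and Iba57, which fell, both iron-sulfur assembly factors, are also in the count and were picked out after their values were seen. The number of higher genes was 3 as TPM, with no filter and without CCl4 replicate 2 or 3, and the fall of Iba57 was lost when any library was left out.

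Pyruvate and lactate genes were split, with 3 of 13 tested genes higher, against 9.64% of all tested rows, and 1 lower, against 22.2% (median 0.09). Gpt, an alanine aminotransferase that makes pyruvate from alanine, rose to 11.2 ± 1.17 FPKM in CCl4, against 4.02 ± 0.902 FPKM in control (log2 fold change 1.29 ± 0.13, SE; limma adjusted p = 0.000477). The pyruvate kinase Pkm had 189, 174 and 184 FPKM in CCl4 libraries, against 137, 108.1 and 106 FPKM in control libraries. Me2, a mitochondrial malic enzyme, rose by 0.26 ± 0.08 (adjusted p = 0.0485, lost when any library was left out), and the cytosolic malic enzyme Me1 fell by 0.59 ± 0.07. The lactate dehydrogenase subunits did not pass, with Ldha at 0.26 ± 0.09 (limma adjusted p = 0.0517) and Ldhb at -0.12 ± 0.11 (0.431). Ldha passed in 9 of the 19 alternatives, TMM, median-ratio and quantile scaling among them. The number of higher genes was 5 with median-ratio scaling, and that of lower genes was 3 as TPM and 2 without control replicate 3.

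Of 9 tested genes that use or trade acetyl-CoA 5 were lower, against 22.2% of all tested rows, and 0 were higher, against 9.64% (median -0.34). Mlycd, the malonyl-CoA decarboxylase, had 22.0, 23.0 and 24.0 FPKM in CCl4 libraries, against 55.4, 49.8 and 50.7 FPKM in control libraries. Acacb, the mitochondrial acetyl-CoA carboxylase that makes malonyl-CoA, fell by 0.89 ± 0.08 (SE; limma adjusted p = 0.000326), the mitochondrial acetate-activating enzyme Acss1 by 1.03 ± 0.11 (0.000688) and the carnitine carrier Slc25a20 by 0.41 ± 0.09 (0.0115). The fifth lower gene, picked out after its value was seen, was the carnitine acetyltransferase Crat. The most abundant gene of the list, the citrate synthase Cs, did not pass. It had 179.7 ± 15.7 FPKM in CCl4 and 180.3 ± 25.4 FPKM in control libraries (log2 fold change 0.001). Acss2 at 0.14, Slc25a1 at 0.07 and Acly at -0.08 also did not pass, and these genes are named to complete the tested list. With median-ratio or quantile scaling 3 genes were lower, and Slc25a20 then missed the threshold. Median-ratio scaling also gave 1 higher gene.

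Transcripts of regulators of Pdk4 fell in 8 of 20 tested genes and rose in 1 (median -0.24), beside 22.2% of all tested rows lower and 9.64% higher. The coactivator Ppargc1a fell to 9.61 ± 0.95 FPKM in CCl4, against 16.2 ± 1.78 FPKM in control (SD, n = 3 each; log2 fold change -0.70 ± 0.10, SE; limma adjusted p = 0.00223). The glucocorticoid-induced factor Klf15 had 10.6, 12.4 and 12.2 FPKM in CCl4 libraries, against 30.2, 29.4 and 20.5 FPKM in control libraries. Cebpb and Foxo3, both transcription factors, fell by 1.75 ± 0.11 and 1.16 ± 0.13. Ppara, the receptor through which fatty acids raise Pdk4, had 3.8 ± 0.547 FPKM in CCl4 and 5.01 ± 0.94 FPKM in control libraries (log2 fold change -0.32, 95% interval -0.63 to -0.01; limma adjusted p = 0.103). Ppara passed as TPM (adjusted p = 0.0309) and without control replicate 3 (0.0252). Foxo1 was at -0.14 ± 0.08 (adjusted p = 0.249). Nr3c1, the glucocorticoid receptor, was not called at 0.19 ± 0.10 (limma adjusted p = 0.182). The lower genes include a corepressor, Ncor1 (-0.44 ± 0.07; limma adjusted p = 0.00389), so the list is not of inducers alone. Nr3c1 and Ncor1 were picked out after their values were seen. The only higher gene, Lpin1, a coactivator of PPAR alpha picked out after its value was seen, passed narrowly (adjusted p = 0.0496). No regulator was higher after leaving out CCl4 replicate 1, 2 or 3 or control replicate 2 or 3.

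All 25 listed target genes of fasting and glucocorticoid signals fell, and their groups did not overlap, beside 22.2% of all tested rows lower and 48.7% not overlapping. Their median log2 fold change was -1.46, the smallest fall was -0.40, and all that were tested were called lower in each of the 19 alternatives, 23 of 23 at a mean of at least 5 FPKM. The list was drawn up with earlier results of these data known. Slc25a34, a mitochondrial carrier, fell by 1.80 ± 0.07 (SE; limma adjusted p = 1.72e-05), and the thioesterase Acot1 had 2.03, 1.45 and 1.52 FPKM in CCl4 libraries, against 15.08, 21.45 and 24.52 FPKM in control libraries. Ddit4 and Tsc22d3, both induced by glucocorticoids, fell by 2.28 ± 0.14 and 1.38 ± 0.09. The sources used here do not state food intake, time of collection or hormone levels.

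**Figure D4:**
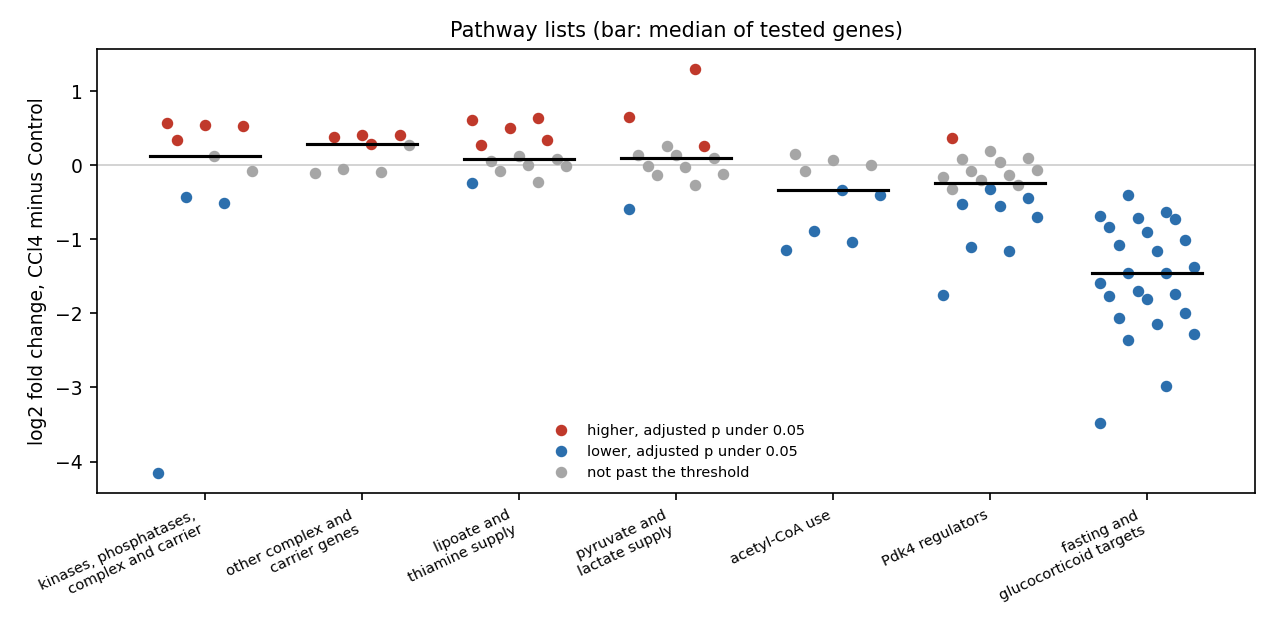
Log2 fold change (CCl4 minus control) of each tested gene in 7 lists, coloured by call at a limma adjusted p under 0.05, with a bar at each list's median. The 25 fasting and glucocorticoid targets all lie at or below -0.40, with a median of -1.46, and the partner genes between -0.11 and 0.41.

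Among the 5 genes whose log2 values, centred over the 6 libraries, lay nearest to those of Pdk4 were Nnt, Nr4a1, Btg2 and Atf3, with root mean square distances of 0.401, 0.512, 0.649 and 0.704. Of these, Nr4a1 and Atf3 are early response transcription factors, and Btg2 restrains cell growth. Nr4a1 had 3.49, 1.97 and 1.61 FPKM in CCl4 libraries, against 36.6, 45.1 and 83.1 FPKM in control libraries. Btg2 had 5.13, 7.15 and 5.42 FPKM in CCl4 libraries, against 45.3, 46.1 and 83.0 FPKM in control libraries. In Nr4a1, Btg2 and Atf3 control replicate 3 was the highest library, whereas Pdk4 was highest in control replicate 1 and Nnt in control replicate 2. The measure rests on 6 libraries in 2 groups, and these 4 genes differ between the groups by more than 3 on the log2 scale.

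**Figure D5:**
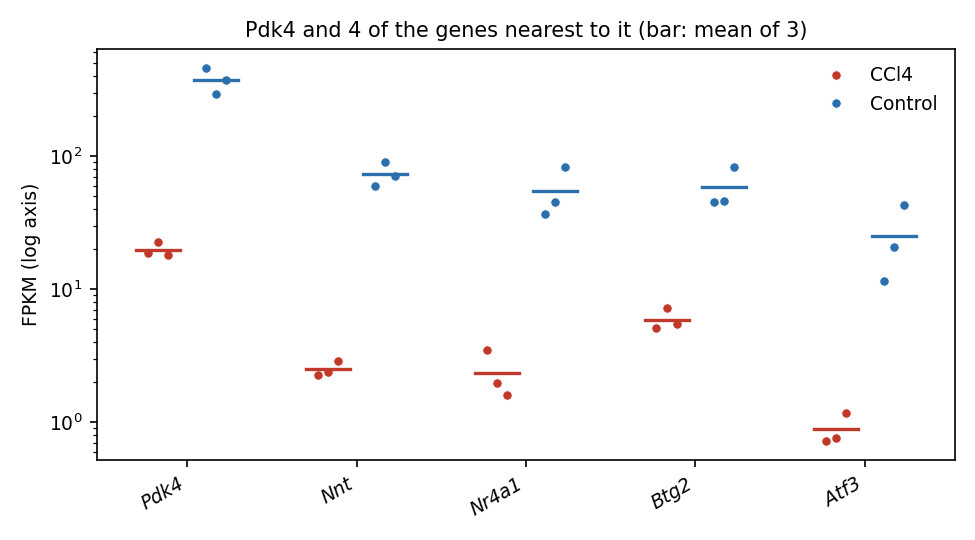
FPKM on a log axis for Pdk4 and 4 of the genes nearest to it, with CCl4 left of Control and a bar at the mean of 3 libraries. Atf3 averages 0.883 FPKM in CCl4 and 24.9 FPKM in control libraries, and Btg2 averages 5.90 FPKM in CCl4 and 58.1 FPKM in control libraries.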

How the data were processed

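RNA was measured in 6 libraries, 3 from CCl4 and 3 from control mice. Per the labels' protocols, oligo(dT)-captured RNA was made into libraries with a uracil-marked second strand and read from both ends. The authors deposited FPKM values, 1 column per library at 2 decimals, made with StringTie 2.1.6 and the genome GRCm38, as the submitters' processing notes list them. The sources used here do not name the aligner, annotation release, filters or strand setting. FPKM were used as deposited, although their sums differ between libraries. Abundant mitochondrial transcripts, 52.0% to 53.2% of the sum in CCl4 and 48.6% to 50.7% in control libraries, lower all other values.

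Whole fragments were not recovered. Among low values of single-exon genes, at best 25.5% to 28.0% lay within 0.1 of a whole number, where 20% of evenly spread values would. Depth is therefore unknown and no count model was used.

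The 10995 of 32479 rows whose mean FPKM reached 1 were kept. Values were transformed to log2(FPKM + 1), a pseudocount of 1 that understates the change of low genes, and CCl4 was set against control with limma 3.58.1 (R 4.3.3; mean-variance trend, two-sided), with Benjamini-Hochberg adjustment over all tested rows and calls at an adjusted p of 0.05. The fit was checked on simulated data. Single measures had an exact permutation test over libraries, two-sided. Replicates are the libraries the labels number within a group. No label ties a library to 1 mouse, so p-values measure the spread between these libraries, which may be technical.

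The 10 genes, the pathway and marker lists and the tests were chosen with earlier results of these data known. Named were all 10 genes, up to 4 called genes of each pathway list with the smallest p, 8 genes whatever their result, the 5 genes nearest to any member changed by more than 1 on the log2 scale, and the 2 most abundant genes of each marker list. Other genes are marked where they appear, and 2 genes that the rule names are not reported here. Positions come from GENCODE M21 (GRCm38), which held 96.8% of the symbols, and promoters from RefSeq (GRCm38.p6), where 9 of the 10 genes matched. Rows carry symbols only, so a position is that of the GENCODE gene. The alternatives were other pseudocounts (0.1, 0.01), filters (none, a mean of 5), 5 other scalings, 3 variance or weight settings, a replicate block and leaving out each library.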

Additional observations from a re-analysis of the deposited data

How the results depend on the processing

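Pdk4, Pdk2, Pdk1 and Pdp1 kept their direction and their call in all 19 alternatives, with Pdk4 between -4.34 (as TPM) and -3.999 (without control replicate 1). With quantile scaling the mean Pdk4 share of the kinase sum was 15.2% in CCl4 and 71.4% in control libraries, and the kinase to phosphatase ratio was 8.93 in CCl4 and 55.2 in control libraries. Members called higher, 4 as deposited, numbered 2 as TPM, 1 with no filter, 5 with median-ratio or quantile scaling, and 1 to 4 when a library was left out. Pathway genes called higher, 13 as deposited, numbered 5 as TPM, 5 with no filter and 7 with the replicate block, and 5 to 13 when a library was left out. Over all tested rows, 1060 were higher and 2441 lower, and the balance moved to 617 and 4221 as TPM, 1713 and 1574 with median-ratio scaling, 1722 and 1637 with quantile scaling, and 655 and 1510 at a mean of at least 5 FPKM, where fewer rows are tested. Leaving out 1 library gave 642 to 1137 higher and 1546 to 2121 lower. Of the called rows 30.3% were higher as deposited, 12.8% as TPM, 20.4% with a common sum outside the mitochondrial genome, 47.2% with TMM and 52.1% with median-ratio scaling. Why the calls moved was not tested further. Among genes not called as deposited, the sign turned for Pdha1 with TMM (0.0036), median-ratio (0.0272) and quantile scaling (0.0143). As TPM it turned for Mpc1 (-0.0272), Mpc1-ps (-0.097) and Lyz2 (-0.0414). With a common sum outside the mitochondrial genome it turned for Mpc1-ps (-0.0153). For C1qb it turned with TMM (0.0323), median-ratio (0.0552) and quantile scaling (0.0827). Mpc1-ps, like Mpc1, passed the threshold with quantile scaling (limma adjusted p = 0.0235). Leaving out 1 library gave -0.109 to 0.0204 for C1qb, -0.334 to 0.00105 for Gsn and -0.0070 to 0.127 for Mpc1-ps, with the sign turning without control replicate 3.

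No pairing of samples by replicate number was seen. Deviations of same-numbered samples correlated at -0.064, 0.0461 and -0.038 across genes, and only CCl4 replicate 2 was closest to the control of its own number. With so few libraries these correlations cannot exclude a pairing. With the replicate block 861 rows were higher and 1790 lower, 3 members were higher and 3 lower, and Dlat had an adjusted p of 0.0668. The block left 2 partner genes higher, with Pdhx at 0.0508 and Dld at 0.0793, and 3 lipoate and thiamine genes higher, with Lipt2 at 0.0522. The unknown depth limits statements on Pdk3 and other genes near 1 FPKM.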
